A study of Saccharomyces cerevisiae with 36 samples.

Results

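The transcripts of the budding yeast Saccharomyces cerevisiae were compared between positions 5 and 3 of its metabolic cycle, which lie 2 intervals or about 50 min apart. The members were 6 of the 36 arrays, chosen by their labelled interval: the arrays of position 5 and those of position 3, 1 from each of 3 successive cycles, so that each position 5 array was set against the position 3 array of its own cycle. All arrays came from total RNA of yeast in continuous culture, hybridised to Affymetrix arrays at 12 positions per cycle with about 25 min between them. The 2 groups shared this culture and differed, by their labels, in the position within the cycle alone. The strain, the medium and the oxygen readings were not given in the sources used here, nor were separate cultures named, so p-values measure the spread between these arrays, which may be technical. Values are probe-set intensities in multiples of the median of the same array, and 5656 genes were tested, each on its brightest probe set. The number of arrays limits the precision.

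Yeast fed slowly in continuous culture can fall into step and swing between bursts of oxygen uptake and long stretches of low uptake. Growth genes, mitochondrial genes and genes of stress and storage metabolism are known to take turns during such a cycle, and cell division is gated to a part of it. Histones are made mainly while DNA is copied, the mitotic cyclins and the septum proteins are used later in division, and the inhibitor Sic1 and the daughter-separation proteins mark its end. Heat shock proteins and the membrane protein Hsp30 are typical of cells in stress or starvation.

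From position 3 to position 5, some genes of glycolysis, of chaperones and of Hsp30-related membrane proteins rose. Some genes of mitosis, histones, the cell wall and respiration fell. The Hsp30-related and cell wall groups were put together after the values of this comparison were seen. In limma, paired by cycle and adjusted by Benjamini-Hochberg at 0.05, 43 of 5656 genes (0.76%) were higher at position 5 and 92 (1.63%) were lower, 135 (2.39%) in all. A difference of at least 1 on the log2 scale was found for 25 of the higher genes (0.442% of all genes) and 42 of the lower genes (0.743%). Without adjustment, 369 genes were higher (6.52%) and 624 were lower (11%) at p under 0.05. The values of the 2 positions did not overlap for 133 of the 135 called genes, the exceptions being the ribosomal RNA methyltransferase gene BMT5 and the enolase gene ENO2. Over all genes, 472 (8.35%) were higher and 940 (16.6%) lower without overlap. All 135 called genes moved the same way in each of the 3 cycles, against 40.3% of all genes, and the choice of called genes favours this. The median difference of all genes was -0.06 on the log2 scale, with 2410 of the 5656 differences positive and 3246 negative. Scaling each array to one trimmed mean left 35 genes higher and 46 lower, so that 43.2% of the called genes were higher against 31.85% with the deposited scaling.

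The counts depended on the arrays of cycle 3. Without them, with 4 arrays left, 12 genes were higher and 11 lower, all of them among the 135. The 12 higher genes were CDC19, GPP1, GRE1, HEF3, HSP30, MF(ALPHA)1, MRH1, PDC1, SHH3, SPC2, YAL063C-A and YRO2. The 11 lower genes were ACH1, AIM20, AMN1, CYC1, CYK3, FIT3, HMX1, HTB2, HXT2, PTR2 and SUR7. Every other called gene lost its call without cycle 3. Without cycle 1 there were 41 higher and 82 lower genes, and without cycle 2 there were 61 and 83. Just inside the threshold lay PRM5 and SSE2 (each adjusted p = 0.0487 in limma) and YOL162W (0.0489), and just outside it FRK1 (0.0518), SET2 and YOX1 (each 0.0532). The smallest difference that was called was a fall by 0.73 on the log2 scale, for COA2. The brightest 25% of genes held 77 of the 135 calls, and the dimmest 25% held 5 higher and 9 lower genes.

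**Figure D1:**
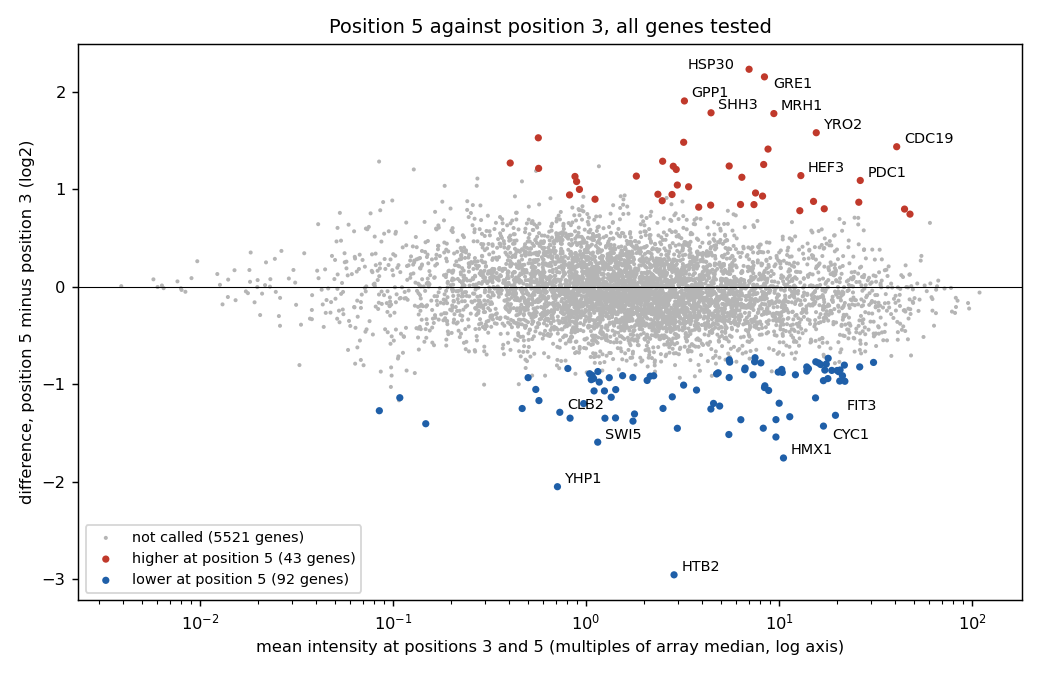
Difference of each gene between positions 5 and 3 on the log2 scale (vertical axis) against its mean intensity at the 2 positions in multiples of the array median (horizontal log axis). Each point is 1 of 5656 genes, with the 43 higher genes in red and the 92 lower genes in blue; HTB2 stands apart at -2.96 and HSP30 is highest at 2.23.

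The largest rise belonged to HSP30, a heat shock protein of the plasma membrane that restrains the proton pump Pma1. Its intensity was 2.66, 2.25 and 2.34 at position 3 of cycles 1, 2 and 3 and 9.99, 13.0 and 11.7 at position 5. Every position 5 array was therefore above every position 3 array, and the difference was 2.23 ± 0.19 (SE) on the log2 scale, or 4.70-fold (adjusted p = 0.000232 in limma). Its relatives MRH1 and YRO2, membrane proteins of the same family, rose with it. MRH1 stood at 4.47, 3.94 and 4.18 at position 3 and at 16.1, 15.5 and 12.2 at position 5 (1.78 ± 0.18 log2, adjusted p = 0.000542 in limma). YRO2 stood at 7.15, 7.63 and 8.49 and then at 25.2, 19.8 and 25.1 (1.58 ± 0.17 log2, adjusted p = 0.00093 in limma). The 3 genes were put together as a group after their values were seen, and all 3 kept their call when any cycle was left out. PMA2, the minor isoform of the plasma membrane proton pump, also rose, from 3.96, 5.23 and 4.78 to 18.0, 10.1 and 10.6 (1.41 ± 0.23 log2). The major isoform PMA1 had a difference of -0.18 ± 0.17 and was not called, and the difference between the isoforms was not tested.

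Of 30 measured heat shock and chaperone genes, 5 were higher (HSP30, GRE1, SSA4, HSP31 and SSE2) and none was lower. The shares over all genes were 0.76% higher and 1.63% lower. The median of this list was 0.34 log2 against -0.06 for all genes. Of its 30 differences 24 were positive, against 2410 of 5656 over all genes. Without cycle 1 or without cycle 3 the list held 2 called genes, and without cycle 2 it held 4. GRE1, a hydrophilin induced by osmotic stress and drying, rose from 4.65, 2.98 and 1.94 to 13.0, 15.7 and 12.1 (2.15 ± 0.22 log2, adjusted p = 0.000738 in limma). Its relative SIP18 had a difference of 0.17 ± 0.17. SSA4, an inducible Hsp70 chaperone, went from between 4.87 and 6.31 to between 9.21 and 13.8, and SSE2, an Hsp110 that recharges Hsp70, from between 11.4 and 13.4 to between 17.9 and 27.5. HSP31, a methylglyoxalase of the DJ-1 family, rose by 0.88 ± 0.19 log2. The small heat shock gene HSP26 had -0.25 and HSP12 had -0.21, neither of them called, so the members did not all move one way.

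**Figure D2:**
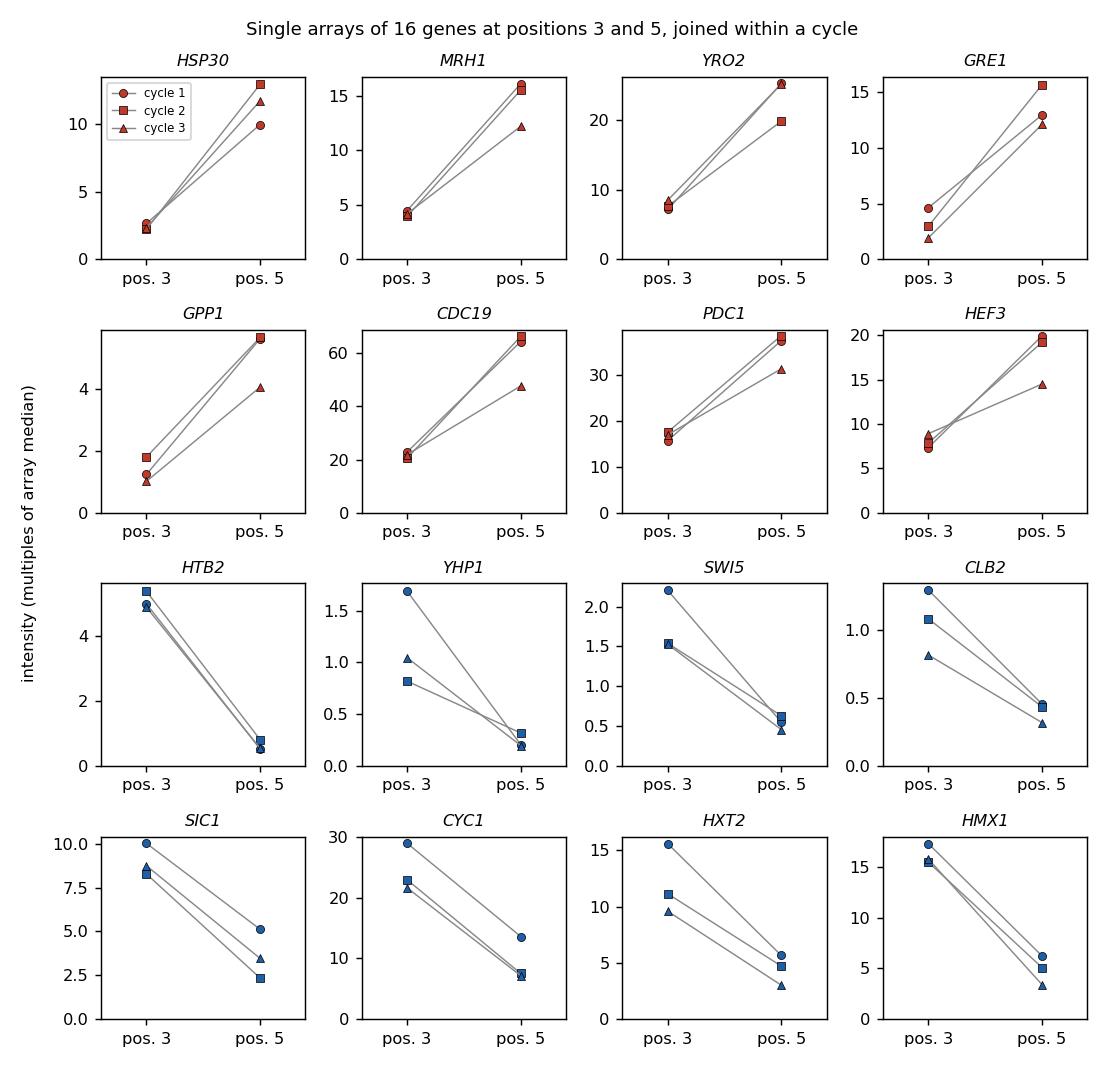
Intensity in multiples of the array median (vertical axes from 0) of 16 genes on the 6 arrays, with the 2 positions on the horizontal axis and a line joining the arrays of a cycle. In the 8 genes in red every line rises and in the 8 genes in blue every line falls, with no overlap between the positions.

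Some genes of glycolysis and fermentation rose. Of 27 measured genes of glycolysis and fermentation, 5 were higher, against 0.76% of all genes, and none was lower. The median was -0.02 log2 against -0.06 for all genes. Of the 27 differences 15 were negative, against 3246 of 5656 over all genes. CDC19, the main pyruvate kinase, had intensities of 22.8, 20.5 and 21.9 at position 3 and of 64.5, 66.4 and 47.7 at position 5 (1.44 ± 0.17 log2, 2.71-fold, adjusted p = 0.0019 in limma). PDC1, the main pyruvate decarboxylase, rose from 15.7, 17.6 and 17.0 to 37.6, 38.6 and 31.4 (1.09 ± 0.17 log2, adjusted p = 0.00633 in limma). Both genes had their lowest mean of the whole cycle at position 3. GPM1, the phosphoglycerate mutase, rose by 0.80 ± 0.16 log2, PFK1, the alpha subunit of phosphofructokinase, by 0.78 ± 0.17, and ENO2, an enolase, by 0.75 ± 0.17. ENO2 was read from a probe set that can match related transcripts, and its sister ENO1 had 0.66 ± 0.18 (adjusted p = 0.0874 in limma). Without cycle 3, and likewise without cycle 1, 2 of the 27 genes were called, and without cycle 2 there were 3.

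Isoforms of these enzymes gave other values. PYK2, the second pyruvate kinase, had a difference of -0.00 ± 0.19 log2 where CDC19 had 1.44, and the pyruvate decarboxylase PDC5 had -0.45 ± 0.19 where PDC1 had 1.09. PDC6, a dim isoform, had 1.08 ± 0.28 and was not called (adjusted p = 0.0758 in limma). At the entry of the pathway the hexokinase HXK1 had -0.51 and the glucokinase GLK1 -0.36, also not called. None of these differences between isoforms was tested. GPP1, which makes glycerol from glycerol phosphate, rose from 1.23, 1.80 and 1.01 to 5.62, 5.66 and 4.06 (1.91 ± 0.19 log2, adjusted p = 0.000542 in limma), and its isoform GPP2 had 0.72 ± 0.22 without a call.

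Other genes that rose had varied roles. SHH3, a homologue of the succinate dehydrogenase subunit Sdh3, went from 1.94, 1.73 and 2.24 to 7.23, 6.15 and 7.33 (1.78 ± 0.17 log2), while SDH3 itself had -0.55 ± 0.16 (adjusted p = 0.111 in limma). HEF3, an isoform of the fungal elongation factor 3, rose from 7.34, 7.85 and 8.90 to 19.9, 19.2 and 14.5 (1.14 ± 0.19 log2), and it was the only gene called among 45 translation factors and tRNA synthetases. Its partner isoform YEF3 had 0.28 ± 0.18. The old yellow enzymes OYE2 and OYE3, which are NADPH oxidoreductases, rose by 1.24 ± 0.19 and 0.96 ± 0.17 log2. They were the 2 called members of 34 redox genes, where 0.76% of all genes were called higher. GID10, a substrate receptor of the GID ubiquitin ligase, rose by 1.53 ± 0.22 from a low level, from between 0.262 and 0.266 to between 0.682 and 1.03.

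Few genes of the biosynthesis lists were called, while over all genes 0.76% were higher and 1.63% lower. ADE17, an enzyme of purine synthesis, rose by 1.14 ± 0.22 log2 as the only called gene of 36 in nucleotide synthesis. SHM2, the cytosolic serine hydroxymethyltransferase, and HIS1, which starts histidine synthesis, rose by 0.88 ± 0.18 and 0.84 ± 0.18. They stood against ASN1, an asparagine synthetase, and BAT2, the cytosolic branched-chain aminotransferase, which fell by 1.06 and 0.97 log2, so that 2 of 70 amino acid genes were higher and 2 lower. RNR3, the DNA-damage-inducible subunit of ribonucleotide reductase, rose by 1.27 ± 0.24 but was dim, at 0.106, 0.404 and 0.183 and then at 0.459, 0.756 and 0.520. The main subunit gene RNR1 had -0.78 ± 0.21 and was not called. Of the transporters, THI7 for thiamine rose by 0.87 ± 0.17 log2 and CTR3 for copper by 0.94 ± 0.20. MF(ALPHA)1, the alpha mating pheromone, rose by 1.29 ± 0.20 as the only called gene of 28 in the mating list, of which 18 lie among the dimmest 25% of genes. YAL063C-A rose by 1.48 ± 0.18 on a probe set that can match several transcripts, against 1.10 and 0.28 on its other probe sets.

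Of 42 measured genes of mitosis and cytokinesis, 10 were lower, against 1.63% of all genes, and none higher, against 0.76%. The list had a median of -0.42 log2, and 34 of its 42 differences were negative, against 3246 of 5656 over all genes. SWI5, a transcription factor for the end of mitosis, stood at 2.20, 1.54 and 1.53 at position 3 and at 0.547, 0.628 and 0.454 at position 5 (-1.59 ± 0.21 log2, adjusted p = 0.00257 in limma). The mitotic cyclins CLB2 and CLB1 fell by 1.29 and 1.20 log2, CLB2 from 1.29, 1.08 and 0.813 to 0.453, 0.433 and 0.317. For each of these genes every position 5 value lay below every position 3 value. In a bulk culture, fewer cells in division and less RNA per dividing cell cannot be told apart.

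The other called members of this list have roles from the spindle to the septum. CHS2, the chitin synthase of the primary septum, went from 6.36, 6.38 and 6.39 to 2.60, 3.20 and 2.51 (-1.20 ± 0.18 log2). HOF1 and CYK3, regulators of cytokinesis at the bud neck, had -1.25 ± 0.18 and -1.25 ± 0.17. ALK1, a haspin-like kinase, fell by 1.38 log2, ASE1, which bundles microtubules of the spindle midzone, by 1.07, the deacetylase gene HST3 by 1.05, and the polo kinase gene CDC5 by 0.96. Without cycle 3 only CYK3 of this list was called, without cycle 2 there were 7 genes and without cycle 1 there were 11. With arrays scaled to one trimmed mean 6 of the 42 were called.

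Of 38 measured genes of the M/G1 boundary and of replication licensing, 8 were lower, against 1.63% of all genes, and none higher. The median was -0.42 log2, with 27 differences negative and 11 positive, the largest of these 1.04 log2 without a call. SIC1, the inhibitor of the cyclin-dependent kinase, fell from 10.0, 8.28 and 8.76 to 5.12, 2.34 and 3.46 (-1.36 ± 0.20 log2, adjusted p = 0.00454 in limma). AMN1, which acts in daughter cells to end mitotic exit signalling, went from 14.5, 13.1 and 14.2 to 6.51, 5.42 and 6.28 (-1.19 ± 0.17 log2). The Pho85 cyclin gene PCL9 fell by 1.01 log2, the daughter-specific genes DSE3 and DSE4 by 0.88 and 0.78, the cell wall genes CIS3 and SUN4 by 1.13 and 0.84, and PRY3 by 1.02. The called members were genes of the end of division, none of them a licensing gene, and the daughter-separation gene EGT2 lay outside the threshold at -0.77 (adjusted p = 0.0552 in limma). Without cycle 3 only AMN1 was called, and 5 genes were called with arrays scaled to one trimmed mean. With positions 3 to 6 in one fit 15 genes of the list were lower and 3 higher, and with all 36 arrays 1 was lower and 1 higher.

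HTB2, a gene of histone H2B, had the largest change of all genes. Its intensity was 4.99, 5.38 and 4.89 at position 3 and 0.520, 0.807 and 0.540 at position 5, a fall by 2.96 ± 0.19 on the log2 scale (7.76-fold lower, adjusted p = 2.82e-05 in limma). HTB1, the other gene of the same histone, had -0.31 ± 0.18 and was not called. HHO1, the linker histone, fell from 7.60, 7.42 and 5.62 to 3.88, 2.31 and 2.69 (-1.22 ± 0.19 log2). Of the 11 histone genes in the list 5 were measured on probe sets with a single gene symbol. All 5 had negative differences, and 2 of them were called, against 1.63% of all genes called lower. Without cycle 3 only HTB2 was called, and without cycle 2 there were 3.

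Of 64 genes of DNA replication and the G1/S step, 1 was lower, near the 1.63% of all genes, and 1 higher, against 0.76%. The lower gene was the G1 cyclin CLN1 at -1.35 ± 0.23 log2. YHP1, a homeodomain repressor of M/G1 genes that belonged to none of the lists, went from 1.69, 0.817 and 1.04 to 0.204, 0.317 and 0.195 (-2.05 ± 0.27 log2, adjusted p = 0.00316 in limma). Its partner YOX1 lay just outside the threshold with a negative difference. PCL1, another Pho85 cyclin, fell by 1.41 log2 at a dim level, from between 0.184 and 0.283 to between 0.0146 and 0.108. TUB1, the main alpha-tubulin, was the only called gene of 11 often used as references, and fell from 17.5, 15.2 and 14.7 to 9.87, 8.75 and 6.86 (-0.90 ± 0.17 log2).

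The list of cell wall genes was written after its members' values had been seen. Of 51 measured genes of cell wall remodelling and mannoproteins, 11 were lower, against 1.63% of all genes, and none higher. The median was -0.41 log2, and 2 of the 11, CIS3 and SUN4, were counted above as well. SRL1, a mannoprotein, fell from 8.18, 7.89 and 8.22 to 3.57, 3.13 and 1.95 (-1.52 ± 0.20 log2), and its other probe sets gave -1.71 and -1.999. The glucan-remodelling enzymes GAS1 and GAS3 fell by 0.94 and 1.05 log2, and the chitin-glucan transglycosylases CRH1 and UTR2 by 0.90 and 1.25. ECM33 fell by 0.86 with -0.80 on its other probe set, whereas SCW10 fell by 0.98 and had 0.01 on its other probe set, so that its call rests on 1 of them. SUR7, a protein of eisosomes under the plasma membrane, fell from 15.9, 12.3 and 14.6 to 6.20, 5.29 and 3.45 (-1.54 ± 0.20 log2, adjusted p = 0.00257 in limma). Without cycle 3 none of the 51 wall genes was called in limma, while SUR7 kept its call, and with arrays scaled to one trimmed mean 5 of the 51 were called.

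**Figure D3:**
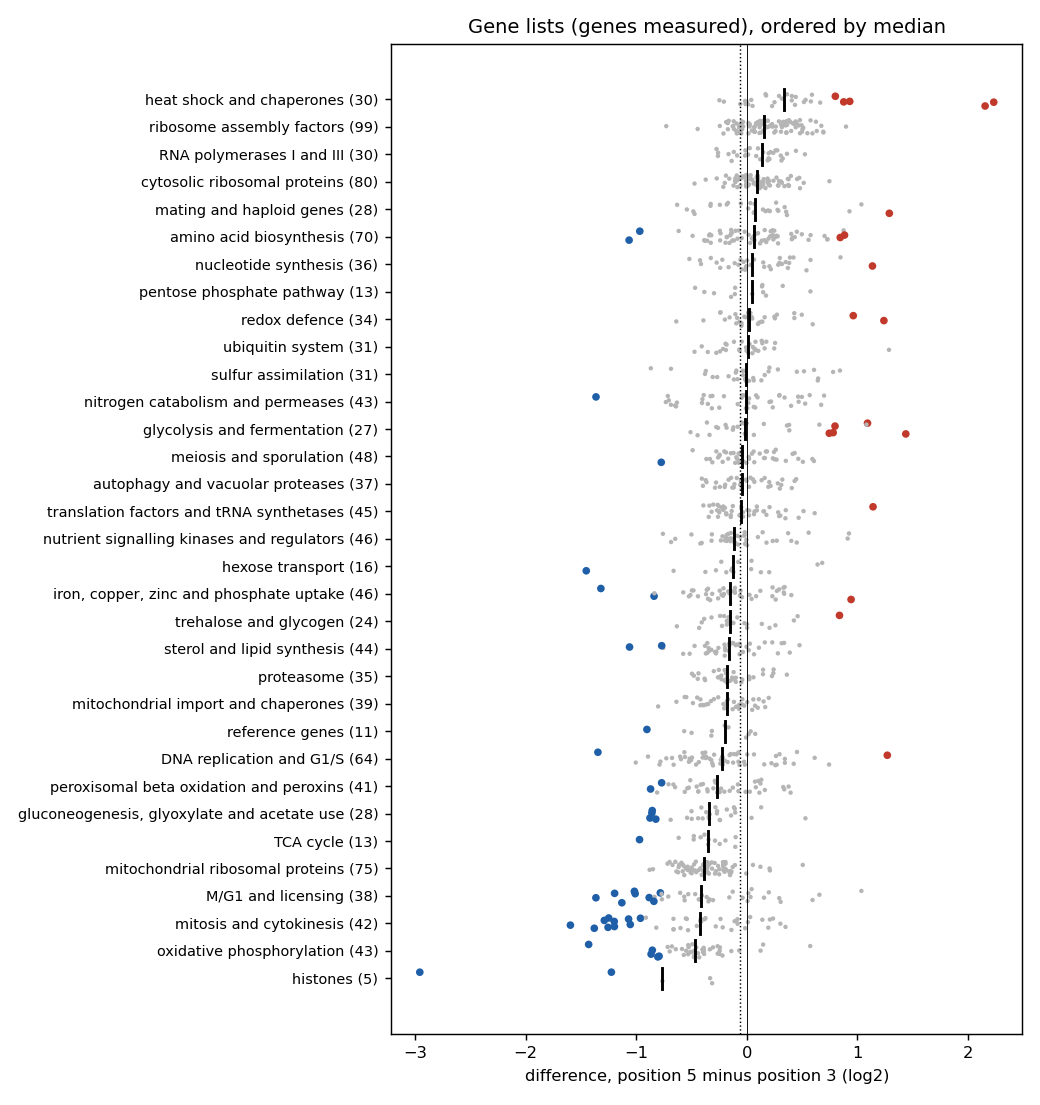
Differences between positions 5 and 3 on the log2 scale (horizontal axis) for the measured genes of 33 lists, ordered by median. Red and blue points are genes called higher and lower, grey points are not called, black bars are list medians and the dotted line is the median of all genes at -0.06; blue points gather in the mitosis, M/G1 and oxidative phosphorylation lists.

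Few respiratory genes passed the test, though most had negative differences. Of 43 measured genes of oxidative phosphorylation, 40 had a negative difference, against 3246 of 5656 over all genes. The list had a median of -0.47 log2. In it 5 genes were lower, against 1.63% of all genes, and none was higher. The bacterial hybridisation spikes moved the same way, by -0.38 log2, and their part in these falls was not tested. CYC1, the main cytochrome c, fell from 29.0, 23.0 and 21.6 to 13.6, 7.50 and 7.14 (-1.43 ± 0.18 log2, adjusted p = 0.00217 in limma). CYC7, the cytochrome c isoform used at low oxygen, had 0.12 ± 0.20. The other called members were COR1, QCR6 and CYT1 of the cytochrome bc1 complex, with -0.87, -0.80 and -0.79 log2, and ATP14 of the ATP synthase, with -0.85 and, on its other probe set, -0.71. Without cycle 3 only CYC1 was called, without cycle 2 there were 2 genes, and with arrays scaled to one trimmed mean there were 3. A fit that also used positions 4 and 6 called 16 of the 43.

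FUM1, fumarase, was the only called gene of 13 in the TCA cycle. All 13 differences were negative, against 3246 of 5656 over all genes, of which 1.63% were called lower. FUM1 went from 32.3, 26.7 and 27.1 to 21.2, 11.8 and 12.4 (-0.97 ± 0.18 log2), and the median of the list was -0.35. COQ2, which joins the ring and tail of coenzyme Q, fell from 2.63, 2.42 and 2.60 to 0.840, 0.972 and 1.23 (-1.31 ± 0.19 log2). MIC60 and MIC27, subunits of the MICOS complex that shapes the inner membrane, fell by 0.93 and 0.85. PSD1, which makes phosphatidylethanolamine in mitochondria, and UPS2, which carries its precursor phosphatidylserine there, fell by 1.06 and 1.07. The lists holding MIC60 and COQ2 were also written after these values were seen, with 4 of 15 and 2 of 12 members lower, and without cycle 3 neither held a call.

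Of 75 measured genes of the mitochondrial ribosome, 70 had a negative difference, against 3246 of 5656 over all genes. The median was -0.39 log2, yet none was called in limma after adjustment. At an unadjusted p under 0.05 this list held 31 lower genes and 1 higher, where 11% of all genes were lower and 6.52% higher. MRPL19, at -0.88 log2, came close to the threshold (adjusted p = 0.0548 in limma). With positions 4 and 6 in the fit 16 of them were lower. MRPL10, a marker of this group, had -0.58 ± 0.19 (adjusted p = 0.143 in limma). Of 39 genes of mitochondrial import and folding 30 had negative differences and none was called in limma (8 lower at an unadjusted p under 0.05), with a median of -0.18.

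Calls among genes for the use of non-sugar carbon were all falls. Of 28 measured genes of gluconeogenesis, the glyoxylate cycle and acetate use, 4 were lower, against 1.63% of all genes, and none higher. The median was -0.34 log2. FBP1, the fructose bisphosphatase that opposes glycolysis, fell from 12.4, 11.8 and 14.2 to 8.63, 6.12 and 6.27 (-0.88 ± 0.18 log2). ICL2, the mitochondrial 2-methylisocitrate lyase, fell by 0.86, and the carnitine acetyltransferases CAT2 and YAT1 by 0.85 and 0.82. None of the 4 kept its call without cycle 3, and 2 or 3 genes of the list were called when another cycle was left out.

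ACH1, a mitochondrial CoA transferase that acts on acetate, fell from 24.1, 19.0 and 20.7 to 11.3, 8.36 and 9.27 (-1.14 ± 0.16 log2, adjusted p = 0.00436 in limma). Of 41 peroxisome genes, DCI1, a dienoyl-CoA isomerase, and FAA1, a long-chain fatty acyl-CoA synthetase, were lower by 0.87 and 0.77 log2. The share called lower over all genes was 1.63%. POX1, which starts peroxisomal fatty acid breakdown, had -0.45 and was not called (adjusted p = 0.216 in limma). LPX1, a peroxisomal lipase outside that list, fell by 0.91. The median of the 41 genes was -0.27, and without cycle 3 none of them was called in limma. With all cycles 15 were lower at an unadjusted p under 0.05, against 11% of all genes.

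Uptake and iron genes held some of the larger falls. HMX1, the haem oxygenase, went from 17.3, 15.5 and 15.8 to 6.22, 5.07 and 3.39 (-1.76 ± 0.19 log2, adjusted p = 0.00093 in limma). FIT3, a cell wall mannoprotein that helps take up iron, fell from 33.1, 25.1 and 25.1 to 16.0, 9.62 and 8.59 (-1.32 ± 0.17 log2), and the iron oxidase FET3 by 0.84. These 2 were the lower genes among 46 for metal and phosphate uptake, where CTR3 was higher. The shares over all genes were 1.63% lower and 0.76% higher. HXT2, a high-affinity glucose transporter, fell from 15.6, 11.1 and 9.59 to 5.65, 4.70 and 3.00 (-1.45 ± 0.18 log2, adjusted p = 0.00192 in limma) as the only called gene of 16 in hexose transport. PTR2, the peptide transporter, fell from 15.7, 12.3 and 13.5 to 6.71, 5.18 and 4.34 (-1.36 ± 0.18 log2) as the only called gene of 43 in nitrogen use. HXT2, PTR2, HMX1 and FIT3 kept their calls when any cycle was left out. TLC1, the telomerase RNA, fell by 0.92 log2 on its brighter probe set and had -0.10 on the other.

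Of the 33 lists, 22 held at least 1 called gene. There were 12 lists with lower genes alone, 7 with higher genes alone and 3 with both, and 11 held no call. The lists held 20 of the 43 higher genes and 43 of the 92 lower genes. No gene of the cytosolic ribosomal protein and ribosome assembly lists was called in limma, while BMT5, the ribosomal RNA methyltransferase gene that rose, is in neither list. Of 137 ribosomal protein genes in the list 80 were measured, 30 of them on probe sets that can match related transcripts. For these 80 the median was 0.10 log2, with 6 higher and 2 lower genes at an unadjusted p under 0.05, and the marker RPL17B had 0.05. For 99 ribosome assembly factors the median was 0.16, with 73 positive differences, against 2410 of 5656 over all genes. At an unadjusted p under 0.05 they held 11 higher genes and 1 lower gene. The shares over all genes at this p were 6.52% higher and 11% lower. None of 35 proteasome genes (median -0.18), 37 autophagy and vacuole genes (-0.05), 31 sulfur assimilation genes (-0.01) or 46 nutrient signalling genes (-0.11) was called in limma. At an unadjusted p under 0.05 these lists held 4 lower proteasome genes, no autophagy gene, and 6 higher and 2 lower sulfur genes. There were 5 higher and 5 lower signalling genes. The lower proteasome and signalling genes were near the 11% of all genes that were lower. In trehalose and glycogen metabolism PIG2, a likely regulatory subunit of a glycogen-linked phosphatase, was higher by 0.84 log2 and the other 23 genes were not called. With these 6 arrays a missing call does not show that a gene kept its level.

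Among the 135 called genes, 5 pairs were neighbours on a chromosome, and in each pair both genes were lower. They were REE1 with IMA5 and BAT2 with YJR149W on chromosome X, YMR317W with ADH6 on chromosome XIII, COQ2 with MVD1 on chromosome XIV and TBF1 with HHO1 on chromosome XVI. Most called genes were lower (92 of 135), and no share of such pairs over all genes was computed. Of the called genes NHP6B overlaps another annotated gene, YBR090C, so its probes may read both.

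The arrays of position 4, which the test did not use, lay between the 2 positions for nearly all called genes. The mean at position 4 was between those of positions 3 and 5 for 43 of the 43 higher genes and 89 of the 92 lower genes, against 53.7% of all genes. The exceptions were YOL162W, which was above both at position 4, and YAT1 and TOS6, which were below both. At position 4 the median called gene had covered 56.0% of its rise or 56.8% of its fall. At position 6 the level had moved on past that of position 5 for 26 of the 43 higher and 70 of the 92 lower genes, against 49.7% of all genes. The called genes were chosen on positions 3 and 5, so these shares are a description.

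HSP30 showed this course, with means of 2.41 ± 0.22 (SD, n = 3) at position 3, 5.71 ± 1.14 at position 4, 11.6 ± 1.49 at position 5 and 13.0 ± 0.64 at position 6. CHS2 showed the reverse, with means of 4.85 at position 4 and 1.43 at position 6. HTB2, by contrast, stayed low from position 5 to 6, with means of 1.77, 0.622 and 0.601 at positions 4, 5 and 6. CDC19 rose to 59.5 ± 10.3 at position 5 and stood at 50.8 at position 6, within that spread.

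**Figure D4:**
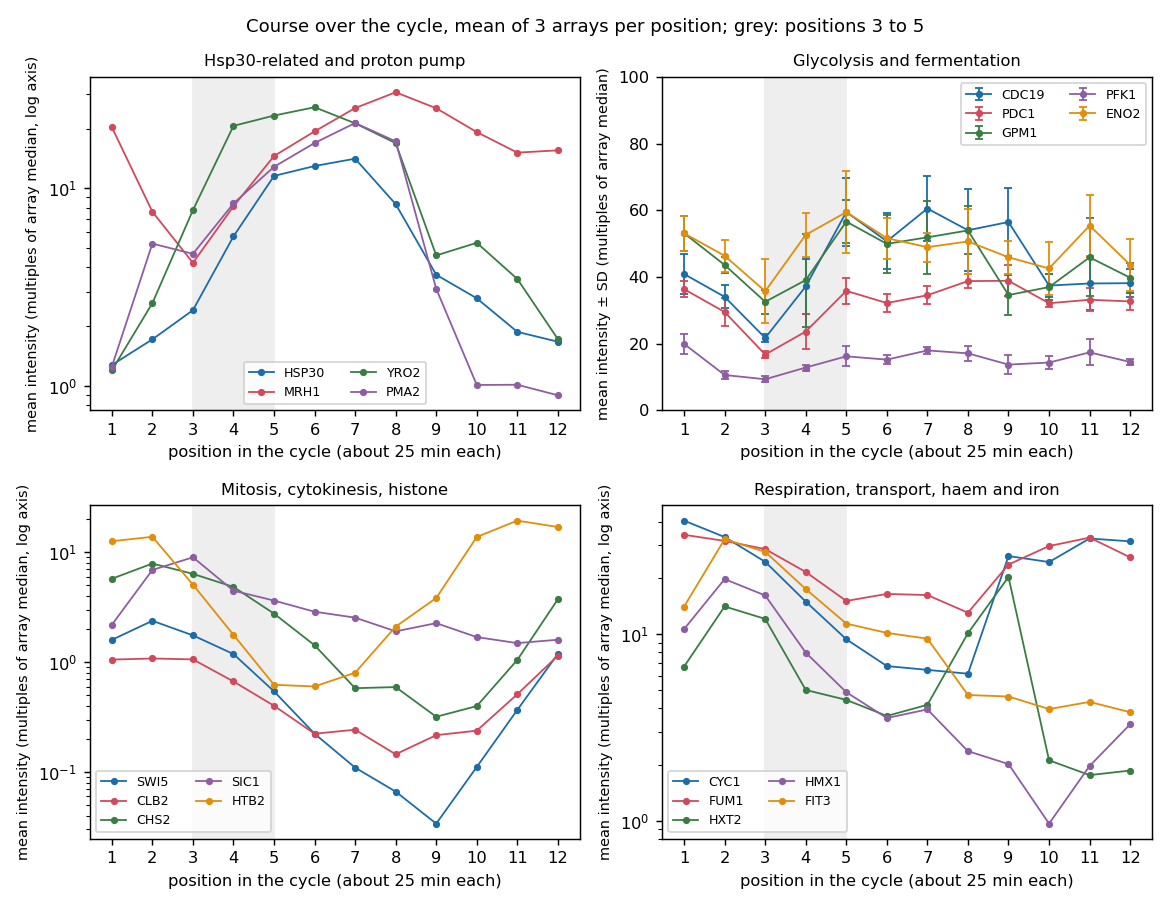
Mean intensity of 3 arrays per position in multiples of the array median for 19 called genes over the 12 positions, on log axes except for glycolysis and fermentation, where the axis starts at 0 and bars are the SD. Between positions 3 and 5 (grey) the genes of the upper panels rise and those of the lower panels fall, and CDC19 and PDC1 are at their lowest at position 3.

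Over the whole cycle, the change from position 3 to 5 made up a median of 44.3% of the range of position means for the higher genes. The share was 40.8% for the lower genes and 17.4% for all genes. The called genes were chosen on positions 3 and 5. This choice favours a large share of the range and high or low points at these positions, so the values here are a description. The higher genes were highest most often at position 7 (15 genes, 34.9% against 4.83% of all genes). Next came positions 5 (8 genes, 18.6% against 4.26%), 8 (8 genes, 18.6% against 17.1%) and 9 (7 genes, 16.3% against 16.5%). They were lowest most often at position 3 (16 genes, 37.2% against 4.99% of all genes) and position 12 (11 genes, 25.6% against 8.95%). The lower genes were highest most often at position 2 (33 genes, 35.9% against 16.3% of all genes) or 3 (21 genes, 22.8% against 8.24%). They were lowest most often at position 8 (25 genes, 27.2% against 17.1%) or 9 (16 genes, 17.4% against 13%). Genes with low points elsewhere included HTB2, which was lowest at position 6 and highest at position 11, and HXT2, which was highest at position 9 and lowest at position 11.

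The change from position 3 to 5 involved fewer called genes than most other changes over 2 intervals. The same paired fit called 1294 genes from position 1 to 3 (22.9%) and 934 from position 2 to 4 (16.5%). It called 118 from position 4 to 6 (2.09%) and 220 from position 5 to 7 (3.89%), and after that 686 from position 6 to 8 (12.1%), 551 from 7 to 9 (9.74%) and 738 from 8 to 10 (13%). From position 10 to 12 there were 284 (5.02%). From position 9 to 11 limma called none, although 799 genes had an unadjusted p under 0.05 and the median absolute difference was 0.36 log2. These comparisons share arrays, and no test was made between them.

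The size of the change put the step from position 3 to 5 in the lower part of the cycle's steps but not at its bottom. Its median absolute difference over all genes was 0.22 log2, against 0.35 from position 1 to 3 and 0.50 from position 7 to 9. Steps with smaller values were those from position 4 to 6 (0.16), 10 to 12 (0.18) and 5 to 7 (0.18). Differences of at least 1 log2, called or not, were found in 1.38% of genes from position 3 to 5 and in 21.6% from position 7 to 9. Averaged over the cycles, the stretch was thus slow by size against the steps out of positions 1, 2 and 6 to 9. It was not slow against those out of positions 4, 5 and 10. The order differed within single cycles. In cycle 1 the medians from position 2 to 4 (0.288) and 6 to 8 (0.261) lay below that from 3 to 5 (0.297). The median from 10 to 12 (0.300) lay above it. In cycle 3 the median from 5 to 7 (0.293) lay above that from 3 to 5 (0.291).

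**Figure D5:**
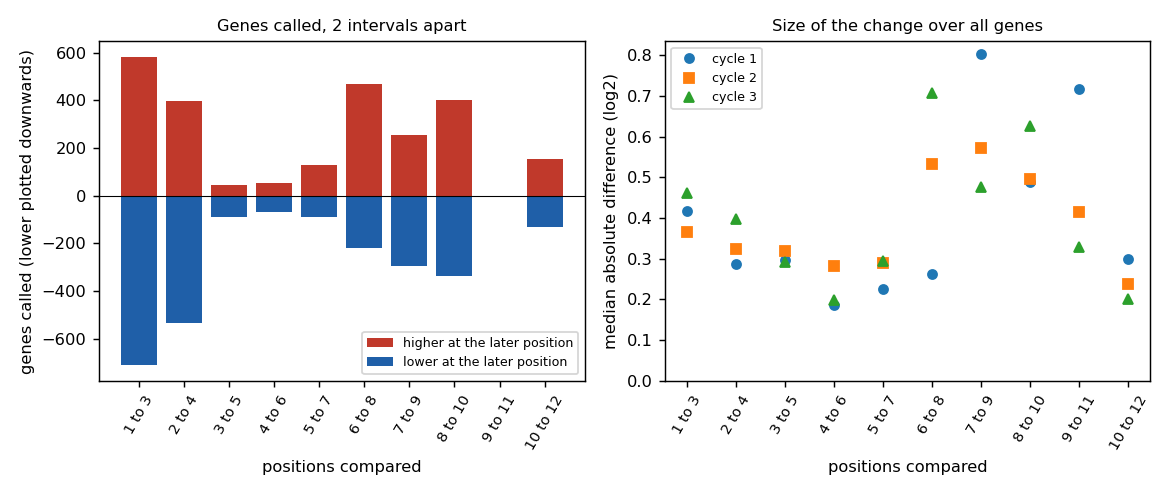
Left, number of genes called higher (red, upwards) and lower (blue, downwards) between positions 2 intervals apart, and right, the median absolute difference over all genes on the log2 scale in each cycle. The step from 3 to 5 has 43 higher and 92 lower genes and medians of 0.297, 0.318 and 0.291 in cycles 1, 2 and 3.

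The 3 cycles gave related but noisy differences. Across genes, the difference of cycle 1 correlated with that of cycle 2 at r = 0.18 and with that of cycle 3 at r = 0.45, and cycles 2 and 3 correlated at r = 0.30. Genes of an array are not independent, and each pair of cycles shares the same probes. Control probes were compared in the same way. The bacterial hybridisation spikes, added to each sample in fixed amounts, were lower at position 5 in 3 of 3 cycles by a mean of 0.38 ± 0.15 (SD) log2, with p = 0.25 in an exact two-sided sign-flip permutation test, the smallest p that 3 pairs allow. The bacterial poly-A spikes went both ways, with -0.39, 0.17 and -0.31 in cycles 1, 2 and 3 and a mean of -0.18 ± 0.30 (SD) log2 (exact permutation p = 0.5). They were dim, with mean log2 values of -3.63 at position 3 and -3.81 at position 5, against 1.74 and 1.36 for the hybridisation spikes. The 18S and 25S ribosomal RNA probes differed by -0.07 ± 0.73 and -0.27 ± 0.34 (exact permutation p = 0.75 and 0.5). The part of these shifts in the other falls was not tested either. Of 3 yeast controls with probes at both ends of the transcript, the level at the 5′ end relative to the 3′ end rose by 0.51, 0.50 and 0.56 log2 for YER148w, fell by 0.13, 0.40 and 0.48 for YER022w, and went both ways for actin.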

How the data were processed

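Intensities of 9335 probe sets on 36 arrays were used as the authors deposited them. No label or file header names the software that made them. Every deposited array has a median of 1, so that intensities are in units of that median. Arrays were grouped by the interval and cycle that the labels state, and 3 arrays of position 5 were set against 3 of position 3. The platform annotation gave 1 gene symbol for 6504 probe sets and several for 328. It did not list 2443 others, and 60 were control probe sets. The 5656 genes were each represented by the probe set with the highest mean over the 36 arrays, and 315 genes had a second one.

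A pseudocount of 0.0516, which is the positive values' 10th percentile, was added before log2 was taken, so fold changes are on that scale and are too small for dim genes. Tests used lmFit and eBayes with a mean-variance trend in limma 3.58.1 (R 4.3.3), with the cycle as a block and Benjamini-Hochberg adjustment over all genes. The prior raised the residual degrees of freedom to a total of 11.4. "Called" means an adjusted p under 0.05. Single values such as control probes were tested by flipping the signs of the 3 cycle differences in an exact permutation test. The fit was tested on simulated data. Counts, medians and figures used Python 3.11.15 with pandas 2.3.3, numpy 2.4.6 and matplotlib 3.10.9.

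The comparison and the gene lists were chosen with earlier results of these data known, and 4 lists (cell wall, coenzyme Q, inner membrane, Hsp30-related) after the values of this comparison were seen. By rule, genes above the dimmest 25% were named if they had the 12 largest rises or falls, or were the 2 called members with the largest and the 1 with the smallest difference in a list, with 3 markers and the called genes outside both positions at position 4. The rule gives 85 genes, not all of them mentioned, and the other genes named were chosen after their values were seen. Alternatives covered the pairing, single cycles, the pseudocount, dim genes, the scaling, the arrays in the fit, the variance prior and the probe sets. No sequences were used.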

Additional observations from a re-analysis of the deposited data

How the results depend on the processing

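The counts of 43 higher and 92 lower genes were recomputed under each alternative. Leaving out 1 cycle gave between 12 and 61 higher and between 11 and 83 lower genes, the lowest counts being those without cycle 3. The lower genes numbered 46 with arrays scaled to one trimmed mean, 50 with all 36 arrays in one fit, 52 with a variance prior without trend and 55 with every gene-named probe set tested. With positions 3 to 6 in one fit there were 157 higher and 319 lower genes, including 42 and 91 of those called here. Requiring at least 1 log2 as well left 25 and 42. The other alternatives (no replicate block, the pseudocount halved or 5 times larger, dim genes left out, quantile normalisation, a robust prior) gave counts within 1.5 times the main ones. Without the replicate block there were 46 higher and 101 lower genes, sharing 36 and 82 with the paired fit. The same-cycle correlations of deviations were 0.005, -0.148 and 0.135, so the pairing rests on the labels and the design, and a call lost under either fit is not read as a weaker effect. In the fit of all 36 arrays the M/G1 list held 1 lower and 1 higher gene, and the lower genes were 2 in oxidative phosphorylation, 0 in gluconeogenesis and 0 in peroxisomes. Called in all of 13 alternatives were 12 higher and 9 lower genes. A further fit, not counted among these, took all probe sets other than controls. In it the 6504 probe sets with 1 symbol held only 12 higher and 24 lower calls. The values of named genes and list medians that follow leave out the alternatives of the variance prior, of every gene-named probe set and of at least 1 log2. For 49 named genes that were called, 447 of 538 recomputed values kept their call and 91 lost it, none with a change of sign. For 36 that were not called, 395 of 396 stayed so. The 36 were named as the list members with the smallest differences or as markers, and most of the 49 for large differences. The naming rule thus favours both results. Of 363 list medians 336 moved by less than the spread between cycles. The causes of these changes were not tested. An alternative on promoter motifs was not run. The dimmest 25% of genes held 5 of the 43 higher and 9 of the 92 lower genes.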

Other observations

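In a single fit of all probe sets other than controls, the 6504 probe sets with 1 symbol held 12 higher and 24 lower calls in limma. The 2443 probe sets without a listed gene held 0 higher and 2 lower calls, and the 328 with several symbols held none. The 2 lower probe sets without a listed gene were 9847_at and 10205_at. The first had mean intensities of 3.15 at position 3 and 1.19 at position 5 (-1.37 ± 0.19 log2, adjusted p = 0.0357 in limma). The second had 4.16 and 1.63 (-1.34 ± 0.18 log2, adjusted p = 0.0357 in limma). The median intensity of the unlisted probe sets was 0.167, against 1.67 for those with 1 symbol.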
